A study of Homo sapiens with 6 samples.

Results

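The genes described here are 51 genes of the transforming growth factor-beta (TGF-beta) and bone morphogenetic protein (BMP) pathway, taken by symbol as ligands, secreted antagonists, receptors, SMADs and target genes from the 62703 genes of the expression table. Of the 51, 45 had enough counts to be tested, among 15179 tested genes in all. TGFBR2 and SMAD4 are not among the 51, nor among the other pathway genes described further below. RNA was sequenced in 6 libraries of PANC-1, an established human pancreatic ductal adenocarcinoma cell line. The 3 WT libraries were made from PANC-1 cells labelled WT. The labels and the study's methods do not state whether those cells had gone through transfection and subcloning. The 3 DKK1-SE-KO libraries, called KO from here on, were made from PANC-1 cells in which CRISPR/Cas9 had removed e1, a component enhancer of the super-enhancer assigned to DKK1, from both alleles. Both groups grew in DMEM with fetal bovine serum and gave RNA during logarithmic growth. All KO libraries came from a single homozygous subclone, so an effect of the deletion and a difference of that clone from other PANC-1 cells cannot be told apart. The labels number the libraries of each group as biological replicates and do not say whether they were separate cultures, so p-values measure only the spread between these samples, part of which may be technical.

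In this pathway a ligand dimer brings type I and type II receptor kinases together, and the type I receptor phosphorylates SMAD proteins that then act in the nucleus. TGF-beta and activin ligands signal mainly through SMAD2 and SMAD3, and BMP ligands mainly through SMAD1, SMAD5 and SMAD9, while secreted antagonists, inhibitory SMADs and ubiquitin ligases restrain the signal. TGF-beta limits the growth of normal pancreatic duct epithelium, and loss of this restraint is common in pancreatic ductal adenocarcinoma.

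The deposited expected counts summed to 21822314, 16475810 and 18803154 in WT replicates 1, 2 and 3 and to 17359835, 20098086 and 17804764 in the KO replicates. DKK1, the gene assigned to the deleted enhancer, stood at 229, 246 and 199 TPM in WT and at 66.8, 79.8 and 82.7 TPM in KO, where TPM is the transcript level after scaling for gene length and library depth. Every KO library lay below every WT library, in the direction the labels give. The log2 fold change of DKK1 (KO over WT, as throughout) was -1.45 ± 0.11 (standard error, 3 libraries a group), with an adjusted p of 6.16e-06 in edgeR's quasi-likelihood test. Of the keratin genes of simple epithelium, KRT8 and KRT18 were high in all libraries. Both were called higher in KO, with log2 fold changes of 0.86 and 0.67. KRT19 was called higher at 1.83, from 48.2, 53.8 and 59.8 TPM in WT to 198, 172 and 146 TPM in KO. KRT7 gave 0.47 and was not called. The 6 epithelial markers summed to 1847, 1888 and 1925 TPM in WT and to 3147, 3090 and 2662 TPM in KO, led by KRT8. The adhesion genes of epithelium among them, EPCAM and CDH1, were low, at most 4.81 and 2.67 TPM in any library. EPCAM was called lower in KO (log2 fold change -0.67, adjusted p 0.0395), a call lost when any library other than KO replicate 3 was left out (-0.75 to -0.53), and CDH1 gave -0.43 and was not called. VIM, the mesenchymal marker, stood at 3746, 4210 and 4522 TPM in WT and at 2819, 2534 and 2700 TPM in KO, so the groups were apart for the epithelial sum and for VIM. VIM, on chromosome 10, had a log2 fold change of -0.47, and the 36 other tested genes within 5 Mb had a median of -0.60. With an offset for GC content in each library these values were -0.64 and -0.39. The part of the region in the lower VIM was not tested. Genes of acinar, endocrine, endothelial and fibroblast cells were at or near 0, none above 0.75 TPM in any library. Of the 3 immune markers CD68, a lysosomal gene that other cells use too, stood between 40.9 and 46.5 TPM in WT and between 64.8 and 67.9 TPM in KO and was called higher (0.76, adjusted p 0.000407), and PTPRC and CD3E did not pass 0.06 TPM in any library. In bulk RNA, fewer cells in a given state and less RNA per cell cannot be told apart.

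The KO libraries differed from WT along the GC content of the genes, by an amount that varied between them. In the fifth of tested genes with the lowest GC content, the median log2 difference from the WT mean was -0.71, -0.41 and -0.17 in KO replicates 1, 2 and 3, against 0.05, 0.03 and -0.07 in the WT replicates. In the fifth with the highest GC content it was 0.35, 0.29 and 0.05 in KO, against -0.04, -0.04 and 0.08 in WT, so KO replicate 3 lay within the WT range there. At both ends of the GC range KO replicate 1 lay farthest from WT and KO replicate 3 closest. The part of this slope in the results below was not tested, and where an offset for GC content in each library ended or gave a call or moved the log2 fold change of a called gene by more than 1.5 times, that value is given beside the result.

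**Figure D1:**
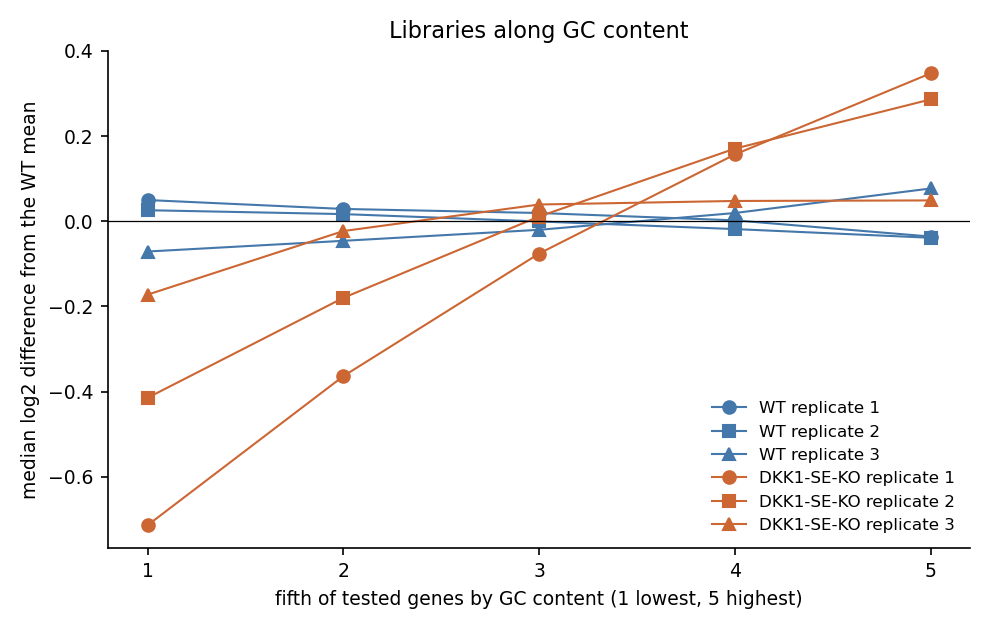
Median log2 difference of each library from the WT mean (vertical axis) in 5 equal groups of the tested genes ordered by GC content (horizontal axis, 1 lowest and 5 highest), with 1 line per library. The WT lines stay between -0.07 and 0.08, while KO replicate 1 runs from -0.71 to 0.35 and KO replicate 3 from -0.17 to 0.05.

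Of the 45 tested members, 31 were called at an adjusted p under 0.05, a share of 68.9%, where 39.3% of all tested genes were called. The members were chosen with earlier results of these data known, so shares above that of all tested genes do not test the pathway. By role the share called was 75.0% for ligands, 83.3% for ligand processing genes and secreted antagonists, 70.0% for receptors and co-receptors and 66.7% for SMADs and regulators, while the 2 of 5 targets called came close to the share of all tested genes. Lower values in KO made up the larger part. BMP4, BMP8B, GREM1, FSTL1, TGFBR1, BMPR1A, BMPR1B, BMPR2, SMAD6 and ID2 were called and fell at least 2-fold, and TGFBR3 alone was called and rose at least 2-fold. In all, 21 members (46.7%) were lower, beside 19.5% of all tested genes, and 10 (22.2%) were higher, beside 19.8%. The median log2 fold change of the tested members was -0.36, and that of all tested genes 0.03. TPM values of the groups did not overlap for 29 members (64.4%), beside 44.2% of all tested genes. With an offset for GC content 32 members were called, 9 higher and 23 lower, and 27 of these were also among the 31. Without KO replicate 1 the count was 28 (7 higher, 21 lower), and without KO replicate 3 it was 34 (10 higher, 24 lower).

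With WT replicate 1 or WT replicate 2 left out, 4 members were called higher in place of 10. On the log2(TPM + 1) scale, tested with limma, 17 members were called, of which GDF11, FSTL3 and ENG were higher and 14 were lower. The calls on TGFB2, BMP1, FSTL1, BMPR1B, SMAD5, SMAD9 and PMEPA1 as lower were lost there, and 17 members were called also with 0.1 TPM added in place of 1. The calls on TGFB1, BMP6, BMP7, TGFBR3, SMAD3, SMURF1 and TGIF1 as higher were lost as well. Of the lost calls, TGFB2 (-0.52), BMP1 (-0.39) and BMP7 (0.90) were no smaller on that scale than from counts (-0.40, -0.36 and 0.89). BMP4 gave -2.26 and GREM1 -1.22 on it. That scale also shifted the median of all tested genes from 0.03 to -0.11 and split all calls into 1275 higher and 2405 lower, where the counts gave 3013 and 2959. Under the limits in the study's methods, an unadjusted p under 0.05 with an absolute fold change of 1.2, read here on the log2 scale, 7 members (15.6%) passed, beside 8.66% of all tested genes. These were BMP2, BMP4, BMP8B, GREM1, BMPR1B and SMAD6, all lower in KO, and TGFBR3, higher in KO. BMP4 and GREM1 passed the low-count filter through the WT libraries only. BMP2 reached its cutoff in 3 WT libraries and 1 KO library, and TGFBR3 in 1 WT library and 3 KO libraries. For these genes a difference was built into their being tested. Of the called members, TGFB1, TGFB2, BMP6, BMP8B, GDF11, BMPR2, ENG, SMAD3, SMAD5, SMAD6, SMURF1, ID2 and PMEPA1 overlap another gene with a mean above 0.1 TPM. The strand setting of the counting is not given in the sources used here, so reads of such pairs may not be fully separated.

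**Figure D2:**
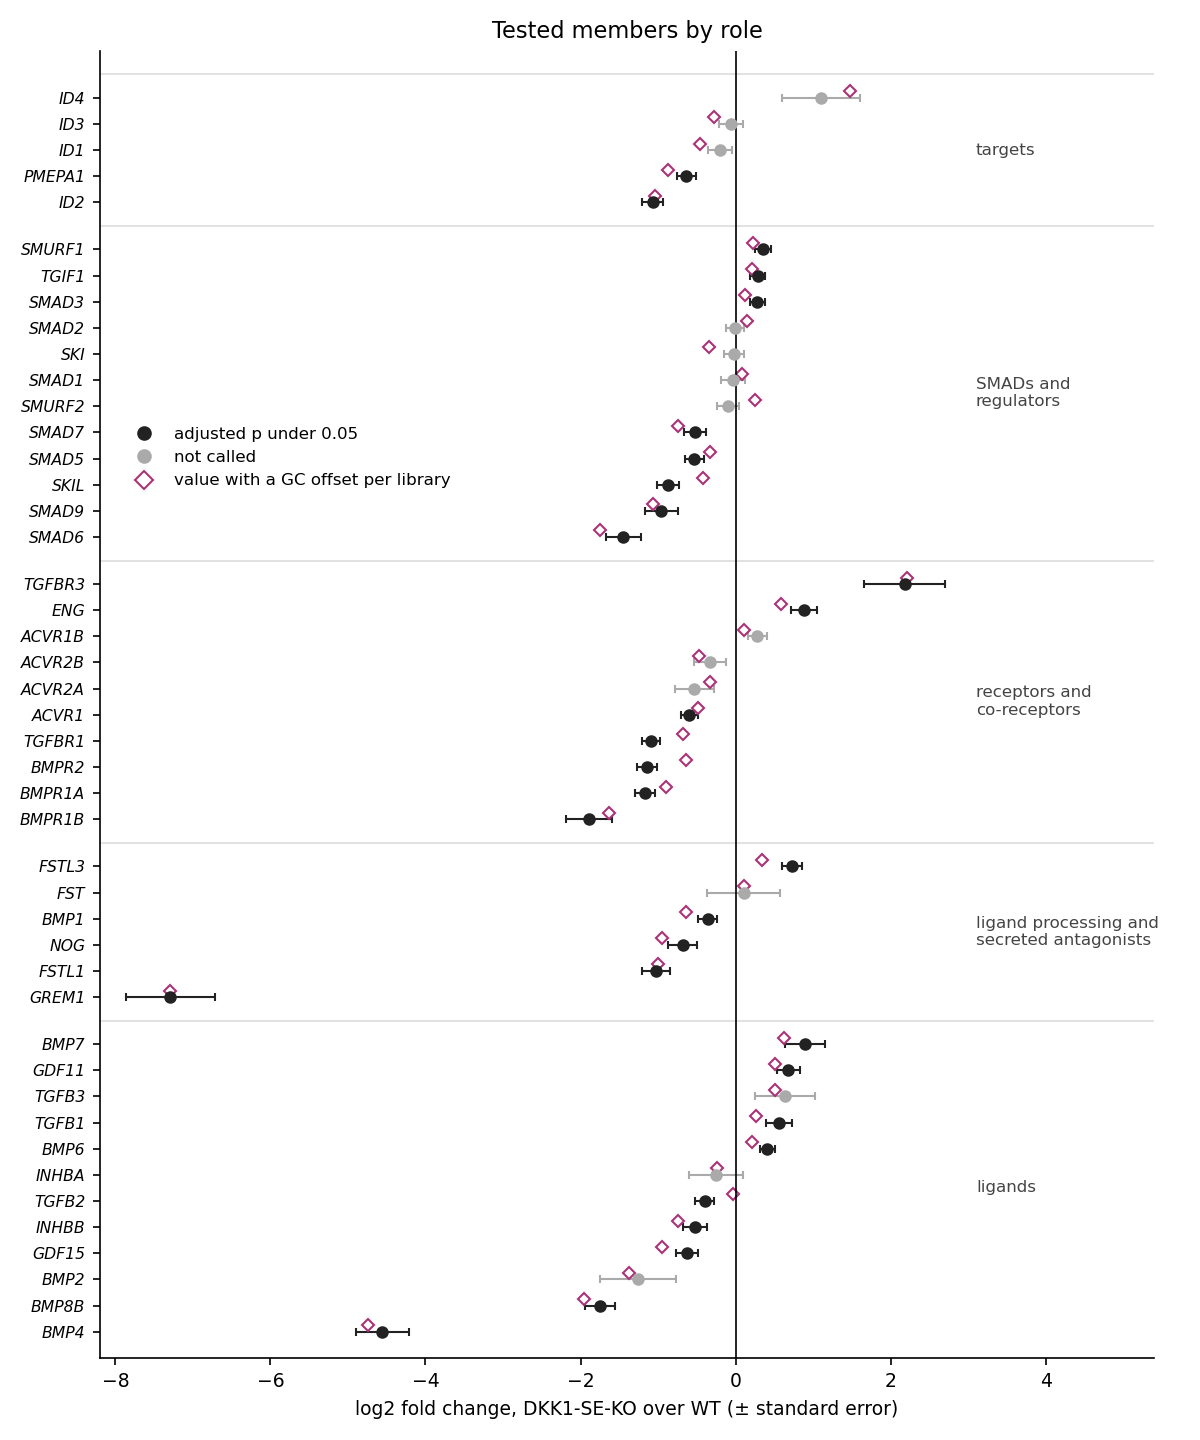
Log2 fold change, KO over WT, of the 45 tested members grouped by role, with standard errors. Black circles mark members with an adjusted p under 0.05, grey circles the others, and open diamonds the value with a GC offset per library. GREM1 (-7.29) and BMP4 (-4.56) lie farthest to the left and TGFBR3 (2.18) farthest to the right.

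Among the ligands, 12 of 16 were tested and 9 were called, 5 lower and 4 higher, and with the GC offset 7 were called, 5 lower and 2 higher. Without that offset 41.7% of the tested ligands were lower and 33.3% higher, beside 19.5% and 19.8% of all tested genes. BMP4 (ENSG00000125378), a morphogen that signals through BMP type I and type II receptors and lies on chromosome 14, stood at 7.03, 6.13 and 4.89 TPM in WT and at 0.33, 0.32 and 0.75 TPM in KO. Its expected counts were 186, 114 and 98.6 in WT and 7, 4 and 4 in KO. Every KO library lay far below every WT library. The log2 fold change was -4.56 ± 0.34 with an adjusted p of 5.08e-06, and the ratio of the mean TPM gave -3.69 on the log2 scale. BMP8B (ENSG00000116985), a BMP best known from germ cells and brown fat and located on chromosome 1, stood at 2.86, 3.57 and 2.91 TPM in WT and at 0.91, 0.88 and 0.69 TPM in KO. The groups were well apart, with a log2 fold change of -1.75 ± 0.20 and an adjusted p of 8.18e-05. BMP8B has a near-identical copy, BMP8A, so its counts are uncertain as far as the authors' counting could split reads between them.

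GDF15, a stress-induced and divergent member of the family, was the most abundant member in WT. It stood at 321, 344 and 382 TPM in WT and at 222, 205 and 171 TPM in KO. All KO values lay below all WT values, and the log2 fold change was -0.63 with an adjusted p of 0.00536, or -0.95 with the GC offset. INHBB, which encodes the beta-B subunit of activins, was lower with -0.52 and an adjusted p of 0.0224, a call lost without WT replicate 3 (range -0.63 to -0.42 with 1 library left out). TGFB2 was lower with -0.40 and an adjusted p of 0.0257. That difference was not called with the GC offset, where it was -0.03, nor without WT replicate 2, WT replicate 3, KO replicate 1 or KO replicate 2, where it lay between -0.39 and -0.34.

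Of the ligands called higher, TGFB1, the main TGF-beta of most tissues, had a log2 fold change of 0.57 and an adjusted p of 0.0207. The call was lost with the GC offset (0.26) and without WT replicate 1, WT replicate 2 or KO replicate 1, with values from 0.34 to 0.54. BMP6, a regulator of iron metabolism, was higher with 0.41 and an adjusted p of 0.00725, which became 0.22 with the GC offset and was not called without WT replicate 1 or WT replicate 2 (0.38 in both). GDF11, a relative of myostatin, was higher with 0.68 and an adjusted p of 0.00409. BMP7 was higher with 0.89 and an adjusted p of 0.0187. Its TPM was 0.63, 0.52 and 0.74 in WT and 3.56, 0.90 and 2.23 in KO, and the ratio of the mean TPM gave 1.82. The expected counts of BMP7, 28, 25 and 29 in WT and 42, 51 and 48 in KO, differed less than the TPM. BMP7 was not called with the GC offset (0.63), by DESeq2, or without WT replicate 1 or WT replicate 2 (0.76 and 0.92).

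Summed over the 3 TGFB genes, TPM was 53.1, 59.7 and 67.6 in WT and 69.8, 55.5 and 63.4 in KO, so the sums overlapped while TGFB1 and TGFB2 moved in opposite directions. The 5 BMP ligand genes among the tested members summed to 33.1, 32.5 and 32.3 TPM in WT and to 31.4, 27.3 and 33.3 TPM in KO. Those sums overlapped as well. BMP6 made up the larger part of them, with 22.5 ± 0.76 TPM (SD, 3 libraries) in WT and 27.0 ± 2.33 TPM in KO. Of the ligands not called, TGFB3 was the most abundant, at 0.27, 0.95 and 0.40 TPM in WT and 0.37, 0.37 and 0.79 TPM in KO. Its groups overlapped, with a log2 fold change of 0.63 from counts and -0.08 from the mean TPM. INHBA, the beta-A subunit of activins, gave -0.25 with overlapping groups. BMP2, a close relative of BMP4, stood at 0.33, 0.38 and 0.38 TPM in WT and at 0.23, 0.11 and 0.06 TPM in KO. Its groups did not overlap, but it had at most 19 counts in a library and its adjusted p was 0.0625 at a log2 fold change of -1.26. BMP2 was called with the GC offset (-1.38), with library size as the only scaling and without KO replicate 1 (-1.92), and its value ranged from -1.92 to -0.93 with 1 library left out. Not tested were INHBE, NODAL, LEFTY1 and LEFTY2, with highest counts of 7, 2, 4 and 1, and the reads of LEFTY1 and LEFTY2, which are near-identical, may be shared.

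Among ligand processing genes and secreted antagonists, 6 of 7 were tested and 5 were called, 4 of them lower. Lower genes were 66.7% of those tested and higher ones 16.7%, beside 19.5% and 19.8% of all tested genes. GREM1 (ENSG00000166923), a secreted antagonist that binds BMP2, BMP4 and BMP7, lies on chromosome 15. It stood at 1.57, 1.06 and 1.45 TPM in WT and at 0.02, 0 and 0 TPM in KO. Those KO values rest on 1 count in KO replicate 1 and none in the other KO libraries, against 90, 55 and 88 in WT. Scaled for library size, the WT counts were 225 times the KO counts, with an exact 95% interval of 40.1 to 8944 that covers counting error only. The adjusted p was 6.75e-06, and the fitted log2 fold change of -7.29 depends on the prior count and is not a bound. FSTL1 (ENSG00000163430), a follistatin-like glycoprotein that binds BMPs, stood at 3.47, 4.25 and 3.80 TPM in WT and at 1.15, 2.48 and 2.47 TPM in KO. All KO values lay below WT, KO replicate 1 lowest, with a log2 fold change of -1.03 ± 0.18 and an adjusted p of 0.00136.

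NOG, which encodes noggin, an antagonist of BMP2 and BMP4, was lower with a log2 fold change of -0.68 and an adjusted p of 0.0125. The call on NOG was lost without WT replicate 3, and its value ranged from -0.83 to -0.55 with 1 library left out. BMP1, a metalloproteinase that cleaves chordin and procollagens and is no ligand, was lower with -0.36 and an adjusted p of 0.0386, and with -0.64 under the GC offset. Its call was lost with DESeq2, without a low-count filter, and with a block for replicate number (the replicate block). It was also lost when any WT replicate or KO replicate 2 was left out (-0.41 to -0.34). FSTL3, which binds activins, was the antagonist called higher, with 0.73 and an adjusted p of 0.00127. With the GC offset FSTL3 was still called, at 0.34. FST, which encodes follistatin, was not called, at 1.24, 0.58 and 0.61 TPM in WT and 0.54, 0.64 and 1.75 TPM in KO. The groups overlapped, and KO replicate 3 was the highest library. CHRD, which encodes chordin, was not tested, with at most 14 counts in a library.

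Among receptors and co-receptors, 10 of 11 were tested, 5 were lower and 2 higher, where 19.5% of all tested genes were lower and 19.8% higher. Of the 6 receptors that BMPs use, 4 (66.7%) were called, all lower. BMPR1A (ENSG00000107779), a type I receptor for BMP2 and BMP4 on chromosome 10, stood at 20.9, 18.7 and 14.1 TPM in WT and at 6.15, 7.12 and 8.11 TPM in KO. BMPR1B (ENSG00000138696), the related type I receptor on chromosome 4, stood at 1.14, 1.51 and 0.81 TPM in WT and at 0.23, 0.37 and 0.39 TPM in KO. BMPR2 (ENSG00000204217), the type II receptor of the BMPs on chromosome 2, stood at 15.8, 17.1 and 15.4 TPM in WT and at 5.72, 7.40 and 9.53 TPM in KO. In each of the 3 genes every KO library lay below every WT library, and KO replicate 1 was lowest. The log2 fold changes were -1.17 ± 0.13 for BMPR1A (adjusted p 7.49e-05), -1.89 ± 0.30 for BMPR1B (adjusted p 0.000679) and -1.15 ± 0.13 for BMPR2 (adjusted p 7.29e-05). With the GC offset BMPR2 was still called at -0.64, and BMPR1A and BMPR1B at -0.90 and -1.63. BMPR1B had at most 76 counts in a library.

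TGFBR1 (ENSG00000106799), the type I receptor for TGF-beta on chromosome 9, stood at 10.2, 11.0 and 9.99 TPM in WT and at 4.15, 4.61 and 5.86 TPM in KO. The groups were apart, with a log2 fold change of -1.09 ± 0.12 and an adjusted p of 6.69e-05, or -0.67 and still called with the GC offset. ACVR1, a type I receptor for BMPs and activins, was lower with -0.60 and an adjusted p of 0.00195. ACVR2A and ACVR2B, type II receptors shared by activins and BMPs, were not called, at -0.53 and -0.33, and their groups overlapped. Without KO replicate 3 both were called, at -0.75 and -0.55. Without KO replicate 1 they were -0.33 and -0.16 and not called, and without WT replicate 2 ACVR2A was -0.35. All 6 type I and type II receptors that BMPs use (ACVR1, ACVR2A, ACVR2B, BMPR1A, BMPR1B and BMPR2) had negative values in the fit and in each of its 17 alternatives. Their summed TPM was 63.2, 63.2 and 56.6 in WT and 26.8, 30.2 and 37.0 in KO. The highest KO sum lay below the lowest WT sum, and the means were 61.0 ± 3.81 and 31.3 ± 5.21 TPM (SD, 3 libraries each).

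The co-receptors had positive values. TGFBR3 (ENSG00000069702), which encodes betaglycan and lies on chromosome 1, stood at 0.88, 0.27 and 0.07 TPM in WT and at 0.42, 0.59 and 2.42 TPM in KO. WT replicate 1 lay above KO replicates 1 and 2, so the groups overlapped. The expected counts were 21, 5 and 6 in WT and 19, 49 and 65 in KO, with a log2 fold change of 2.18 ± 0.52 and an adjusted p of 0.00725. Without WT replicate 1 the log2 fold change was 2.93 and without KO replicate 3 it was 1.76. On the log2(TPM + 1) scale TGFBR3 gave 0.53 and was not called. ENG, which encodes endoglin, a co-receptor known from endothelium, was higher with 0.89 and an adjusted p of 0.00188, or 0.59 with the GC offset. ACVR1B, the activin type I receptor, was the most abundant receptor not called, at 10.7, 13.0 and 8.18 TPM in WT and 12.9, 10.7 and 11.1 TPM in KO. All 3 KO values of ACVR1B fell within the WT range. BAMBI, a pseudoreceptor without kinase activity, was not tested, with at most 16 counts in a library.

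**Figure D3:**
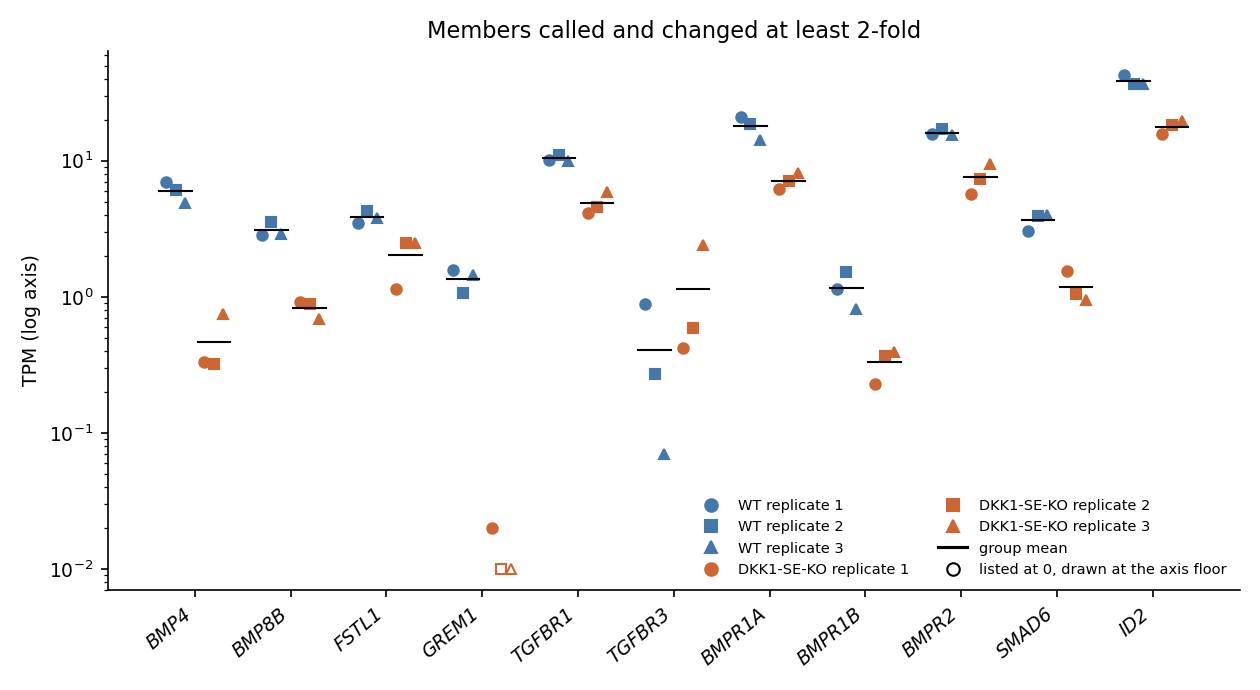
TPM in every library (log axis) of the 11 members that were called and changed at least 2-fold, WT in blue and KO in orange, with black lines at the group means. The groups are apart for every gene except TGFBR3, where WT replicate 1 (0.88) lies above KO replicates 1 and 2 (0.42 and 0.59). GREM1 is listed at 0 in KO replicates 2 and 3.

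All 12 SMADs and regulators were tested, with 5 lower (41.7%), 3 higher (25.0%) and 4 not called. Of all tested genes 19.5% were lower and 19.8% higher. SMAD6 (ENSG00000137834), an inhibitory SMAD that restrains BMP signalling and is also a BMP target, lies on chromosome 15. It stood at 3.07, 3.90 and 3.97 TPM in WT and at 1.56, 1.05 and 0.94 TPM in KO. The highest KO value was well below the lowest WT value, with a log2 fold change of -1.45 ± 0.23 and an adjusted p of 0.000739. SMAD7, the inhibitory SMAD induced by TGF-beta, was lower with -0.52 and an adjusted p of 0.0148, not called without WT replicate 2, WT replicate 3 or KO replicate 2 (-0.51 to -0.49). Together SMAD6 and SMAD7 summed to 20.4, 24.4 and 24.6 TPM in WT and to 16.9, 13.3 and 12.6 TPM in KO, so the sums did not overlap.

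The BMP-responsive SMADs differed among themselves. SMAD9 was lower with -0.96 and an adjusted p of 0.00504, and SMAD5 was lower with -0.53 and an adjusted p of 0.00524. SMAD5 overlapped in TPM, its mean TPM ratio was -0.17 on the log2 scale, and its log2 fold change was -0.32 with the GC offset. SMAD1 was not called, at -0.03. SMAD2, the most abundant gene of this role not called, stood at 41.65, 43.98 and 41.03 TPM in WT and at 38.02, 46.49 and 51.52 TPM in KO. The KO values reached both below and above the WT values. SMAD3, at 109 ± 7.64 TPM in WT and 132 ± 11.6 TPM in KO (SD, 3 libraries each), was called higher with 0.28 and an adjusted p of 0.0399. Its call was lost with the GC offset (0.13), with either other scaling, without a low-count filter and with the replicate block. It was also lost when any WT replicate or KO replicate 1 was left out (0.22 to 0.30).

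SKIL, which encodes the SMAD co-repressor SnoN and is itself induced by TGF-beta, was lower with -0.87 and an adjusted p of 0.000857, or -0.41 with the GC offset, where it was still called. The related SKI gave -0.02 and was not called, but became -0.35 and was called with the GC offset. TGIF1, another co-repressor, was called higher with 0.29 and an adjusted p of 0.0381, with groups that overlapped in TPM. That call was lost with DESeq2, with library size as the only scaling, without a low-count filter and with the replicate block. It was also lost when any library other than KO replicate 3 was left out (0.25 to 0.30). SMURF1, a ubiquitin ligase that marks BMP-responsive SMADs for degradation, was called higher with 0.35 and an adjusted p of 0.0155. It gave 0.23 with the GC offset. The call on SMURF1 was lost when any WT replicate was left out (0.29 to 0.37) and with the replicate block (0.35). SMURF2, the related ligase, was not called at -0.10. It was called higher with the GC offset (0.26) and lower without KO replicate 3 (-0.29).

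Of the 5 target genes all were tested, and 2 were called, both lower, a share near the 39.3% of all tested genes. The GC offset gave 4 calls, 3 lower and 1 higher. ID2 (ENSG00000115738), an inhibitor of basic helix-loop-helix factors that BMPs induce, lies on chromosome 2. It stood at 42.4, 36.4 and 36.5 TPM in WT and at 15.7, 18.3 and 19.5 TPM in KO. All KO libraries lay below all WT libraries, with a log2 fold change of -1.07 ± 0.14 and an adjusted p of 0.000174. ID1, from the same family and the most abundant target, stood at 230, 225 and 267 TPM in WT and at 186, 219 and 153 TPM in KO. The groups did not overlap in TPM, but the log2 fold change of -0.20 was not called (adjusted p 0.337), while with the GC offset it was -0.45 and called. ID3 stood at 233, 218 and 231 TPM in WT and at 202, 221 and 157 TPM in KO. Its groups overlapped at KO replicate 2, with a log2 fold change of -0.05. ID4, at most 16 counts in a library, gave 1.10 with overlapping groups, was not called, and was called at 1.47 with the GC offset. The 4 ID genes summed to 506, 480 and 534 TPM in WT and to 404, 458 and 330 TPM in KO, sums that did not overlap. ID1 and ID3, neither called without the GC offset, made up most of these sums. Groups did not overlap in TPM for 44.2% of all tested genes. PMEPA1, a membrane protein that TGF-beta induces and that dampens its signal, was lower with -0.64 and an adjusted p of 0.00239. Its TPM overlapped between WT replicate 1 and KO replicate 1, at 98.1, 118 and 145 TPM in WT and 104, 82.3 and 69.3 TPM in KO.

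The members lie on 18 chromosomes, and the values of their neighbours were set beside them. For each member this is the median log2 fold change of the other tested genes within 5 Mb that are not members. Of the 31 called members, 21 had neighbours with a median of the same sign, and 9 lay at least 1 log2 unit away from that median. These counts were 13 and 12 with the GC offset. The same counts were not made over all called genes, so they do not show a trait of the members. BMP4 (-4.56) had a neighbour median of -0.22 over 72 genes, GREM1 (-7.29) of -0.04 over 53 genes and SMAD6 (-1.45) of -0.12 over 75 genes. Each of these genes lay more than 1 log2 unit below the median around it. TGFBR1 (-1.09, neighbours -0.02), ID2 (-1.07, neighbours -0.09) and BMP8B (-1.75, neighbours 0.13) lay lower than their neighbours as well, and the neighbours of FSTL1 (-1.03) had a median of 0.70. BMPR2, BMPR1A and the other type I and type II receptors that BMPs use stood in regions where other genes were lower as well. The neighbour medians were -0.28 for ACVR1, -0.46 for ACVR2A, -0.53 for ACVR2B and -0.33 for BMPR1B. The neighbours of BMPR2 had a median of -0.52 over 51 genes and those of BMPR1A of -0.67 over 41 genes. INHBB (-0.52) equalled the median of its 22 neighbours, also -0.52, and BMP1 (-0.36) was less reduced than its 58 neighbours, at -0.82. The neighbour medians of BMPR2 and BMPR1A shrank to -0.25 and -0.36 with the GC offset. Those of ACVR1, ACVR2A and BMPR1B became -0.08, -0.05 and -0.12, and that of ACVR2B was -0.51. INHBB then lay below its neighbours (-0.74 against -0.41), and BMP1 (-0.64) came closer to its own, at -0.87. Copy number was not measured here.

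The upstream sequences of BMP4, GREM1, BMPR2 and SMAD6 are shown as examples of BMP pathway genes that were lower together in KO, and were chosen after the values were seen. They were read from a table of RefSeq upstream sequences (GRCh38.p14), in which 43 of the 51 members were matched, with 79 start sites in all. Each is the 250 bases before the first listed start of the gene, 5′ to 3′ on the gene's strand. BMP4 lies at chr14:53955051-53955300 (minus strand), GREM1 at chr15:32717754-32718003 (plus strand), BMPR2 at chr2:202376077-202376326 (plus strand) and SMAD6 at chr15:66701986-66702235 (plus strand). Capitals mark matches to GGCGCC, a GC-rich element bound by SMAD1 and SMAD5, or to GTCTAGAC, the palindromic SMAD-binding element, searched on both strands.
BMP4: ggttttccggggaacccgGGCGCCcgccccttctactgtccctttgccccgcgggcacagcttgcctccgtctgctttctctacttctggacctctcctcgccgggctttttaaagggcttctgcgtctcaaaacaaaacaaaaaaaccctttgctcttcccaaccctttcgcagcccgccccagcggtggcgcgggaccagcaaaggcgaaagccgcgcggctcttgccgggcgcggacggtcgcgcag
GREM1: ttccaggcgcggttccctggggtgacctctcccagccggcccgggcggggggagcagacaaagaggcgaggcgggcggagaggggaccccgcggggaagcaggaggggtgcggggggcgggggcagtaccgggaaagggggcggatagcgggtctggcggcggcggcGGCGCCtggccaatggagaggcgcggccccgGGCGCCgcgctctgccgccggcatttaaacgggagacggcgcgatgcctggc
BMPR2: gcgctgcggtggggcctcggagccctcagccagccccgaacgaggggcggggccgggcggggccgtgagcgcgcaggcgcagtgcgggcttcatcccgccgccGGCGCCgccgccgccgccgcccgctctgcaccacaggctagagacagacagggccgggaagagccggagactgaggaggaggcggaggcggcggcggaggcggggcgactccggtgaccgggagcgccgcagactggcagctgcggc
SMAD6: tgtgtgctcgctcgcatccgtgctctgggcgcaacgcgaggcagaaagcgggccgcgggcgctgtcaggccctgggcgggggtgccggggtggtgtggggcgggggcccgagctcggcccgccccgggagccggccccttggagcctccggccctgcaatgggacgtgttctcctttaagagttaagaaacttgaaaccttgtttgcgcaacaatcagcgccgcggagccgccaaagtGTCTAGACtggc
GTCTAGAC occurred once in the SMAD6 sequence, close to the start, and in no other of the 79 member sequences. Among all 35116 upstream sequences of that length, 64 (0.182%) held it. Each sequence shown holds a match, but the other listed starts of BMP4 and GREM1 hold none, and neither do those of BMPR1A, BMPR1B, ID2 and SMAD9, which were called lower too. GGCGCC occurred 1 time for BMP4, 2 times for GREM1 and 1 time for BMPR2, in 18 of the 79 member sequences (22.8%) and in 16.4% of all. TGANTCA, the AP1 motif, was in none of the 4 sequences shown, in 5 of the 79 member sequences (6.33%) and in 6.57% of all. Of the 38 sequences of members called lower, 9 held GGCGCC and 1, of ACVR1, held TGANTCA. A match describes letters only and was not tied to binding here.

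Of 81 other genes of the pathway, 47 were tested and 27 were called, a share of 57.4% beside the 39.3% of all tested genes. Of the 47, 12 (25.5%) were higher and 15 (31.9%) lower, beside 19.8% and 19.5% of all tested genes. This list too was chosen with earlier results of these data known, so its shares do not test the pathway. The largest falls were in LTBP2 and LTBP1. LTBP2, a matrix protein of the latent TGF-beta binding family, stood at 46.5, 48.2 and 48.3 TPM in WT and at 10.4, 9.31 and 11.4 TPM in KO (log2 fold change -1.96 ± 0.10, adjusted p 3.77e-07). LTBP1, which anchors latent TGF-beta in the matrix, stood at 31.8, 31.7 and 33.7 TPM in WT and at 8.32, 8.21 and 10.4 TPM in KO (-1.76 ± 0.11, adjusted p 1.16e-06). Replicates of each group lay close together for both genes. The integrin chains ITGAV and ITGB8, which together release active TGF-beta, were lower with -1.16 (adjusted p 0.000505) and -1.20 (adjusted p 0.00243). ITGAV became -0.72 with the GC offset and was still called, and ITGB8 lost its call on the log2(TPM + 1) scale. The median of other tested genes within 5 Mb was 0.09 for LTBP2, -0.66 for LTBP1, -0.56 for ITGAV and -0.45 for ITGB8. With the GC offset these medians were 0.10, -0.31, -0.25 and -0.25. The 4 LTBP genes summed to 158, 167 and 184 TPM in WT and to 115, 110 and 95.6 TPM in KO. LTBP3 (0.09) and LTBP4 (-0.18) overlapped between groups and were not called, but were called lower with the GC offset, at -0.28 and -0.53. Of latency and activation genes as a whole, 9 of 11 were tested, 5 lower and 1, THBS1 (0.68), higher. These were shares of 55.6% and 11.1%, beside 19.5% and 19.8% of all tested genes. With the GC offset 7 were lower and 1 higher. THBS1 lost its call on the log2(TPM + 1) scale, at 0.45.

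Target genes outside the member list went both ways, 6 higher and 4 lower among 15 tested, where 19.8% of all tested genes were higher and 19.5% lower. The GC offset gave 5 higher and 5 lower. TGFBI, a secreted matrix protein named for its induction by TGF-beta, stood at 314, 308 and 317 TPM in WT and at 116, 127 and 137 TPM in KO (-1.20 ± 0.09, adjusted p 6.41e-06). MSX2, a homeobox gene induced by BMPs, stood at 3.38, 2.94 and 4.31 TPM in WT and at 12.5, 10.3 and 9.65 TPM in KO (1.74 ± 0.20, adjusted p 0.000105). The groups were apart for both genes. NEO1, a receptor that binds RGM co-receptors of the BMPs, stood at 0.86, 1.10 and 1.41 TPM in WT and at 3.21, 3.09 and 7.33 TPM in KO (2.57 ± 0.21, adjusted p 7.85e-06). FN1, which encodes fibronectin, was higher by 2.70 on the log2 scale in counts (adjusted p 1.87e-05) and by 0.59 in mean TPM, and its TPM overlapped. FN1 was not called on the log2(TPM + 1) scale.

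**Figure D4:**
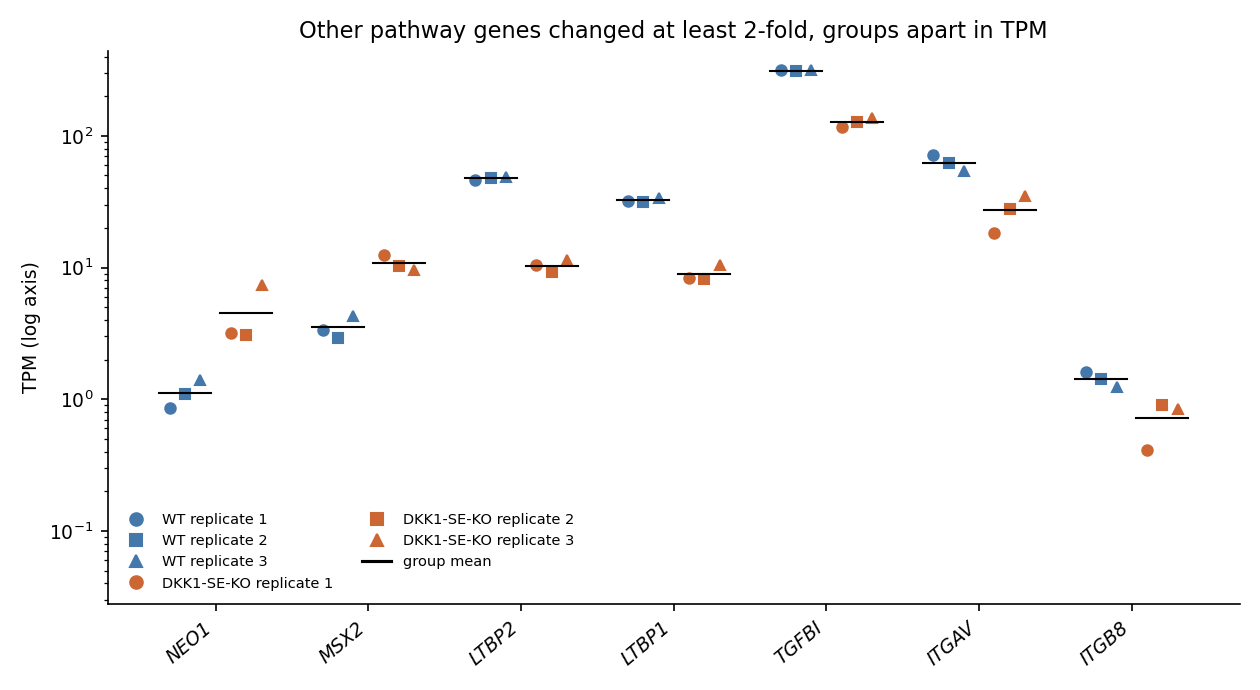
TPM in every library (log axis) of the 7 other pathway genes that were called, changed at least 2-fold and did not overlap between groups, with black lines at the group means. NEO1 and MSX2 are higher in KO, and LTBP2, LTBP1, TGFBI, ITGAV and ITGB8 are lower. TGFBI falls from between 308 and 317 TPM in WT to between 116 and 137 TPM in KO.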

How the data were processed

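The authors deposited a gene table of PANC-1 RNA-seq (stranded mRNA libraries, hg38) with expected counts and TPM per sample. The aligner, the counter with its strand setting, and the annotation are not given in the sources used here. The authors' fold change and p-value columns and their mean TPM columns were not used. Deposited expected counts (32.3% of nonzero values not whole) were rounded and tested with edgeR 4.0.16 (filterByExpr with a minimum count of 10, TMM, quasi-likelihood F test, Benjamini-Hochberg over all 15179 tested genes), 3 KO against 3 WT libraries. The script was checked on simulated counts. Genes were called at an adjusted p under 0.05. Standard errors are the absolute log2 fold change over the square root of F. TPM was used as the authors deposited it. Alternatives were other scaling, no filter, DESeq2 1.42.0, limma 3.58.1 on log2(TPM + 1) or log2(TPM + 0.1), GC offset (40 bins), a replicate block, a test against a 1.2-fold change, and leaving out each library. Called members whose log2 fold change was 1 or more in size are given in every sample, together with the most abundant member not called in each role. Other called members are given by fold change and adjusted p. Of other pathway genes, up to 5 in each direction were named that were called, changed at least 2-fold and did not overlap in TPM. Per-sample values of GDF15, BMP2, BMP7, ID3 and PMEPA1, and the naming of FN1, THBS1, LTBP3 and LTBP4, were chosen after their values were seen. Of the listed genes 99.9% were placed in GENCODE v44. Members and lists were chosen with earlier results of these data known.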

Additional observations from a re-analysis of the deposited data

How the results depend on the processing

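Of the 31 called members, 11 kept call and direction in all 17 alternatives (ACVR1, BMP4, BMP8B, BMPR1A, BMPR2, FSTL3, GDF15, GREM1, ID2, SMAD6 and TGFBR1), and 20 were called in every leave-one-out fit. DKK1 kept its call and direction throughout. SMURF2, not called in the main fit, turned from -0.10 to 0.26 and was called with the GC offset, with and without the replicate block, and was called lower (-0.29) without KO replicate 3. Over the 45 tested members and 7 other pathway genes, 741 values stayed on the same side of the threshold, 116 lost a call, 14 gained one and 2, both of SMURF2, were called in the other direction. Values not called could change sign among the 741. The cause was not tested.

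limma on log2(TPM + 1) called 17 members (3 higher; 3 past the study's limits), 12 other pathway genes and 3680 genes in all, with 0.1 added in place of 1 it called 17 (3 higher), 12 and 3689, and without a filter 12 (1 higher, 11 lower; 3 past the limits), 9 and 2320. The test against a 1.2-fold change called 5 members higher, 16 other pathway genes and 3956 genes. With the GC offset and the replicate block 6 members were called higher. With 1 library left out, members called ranged from 22 to 34, those higher from 4 to 10, those lower from 16 to 24, those past the study's limits from 6 to 10, other pathway genes from 18 to 26 and all genes from 4095 to 7558.

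The replicate block gave 27 members called, 7 higher and 20 lower, and 4981 genes. The calls on BMP1, SMAD3, SMURF1 and TGIF1 were lost with it. Same-numbered samples did not deviate together (correlations -0.12, -0.07 and -0.11), and no sample correlated best with its own number. With 3 libraries a group, genes with few counts, such as BMP2, ID4 and FST, had standard errors of 0.49, 0.50 and 0.47.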
